A study of Mus musculus with 7 samples.

Results

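VH2-3 (Ighv2-3) and VH2-4 (Ighv2-4) are members of the VH2 family of immunoglobulin heavy chain variable (V) segments. In the mouse Igh locus they lie among the V segments closest to the diversity (D) segments. They were chosen by name, and their joins were collected by position, as junctions on chromosome 12 in the orientation of a deletion that fall in a window around each segment. These 2 segments are among 158 V segments found in the libraries. VH2-3 joins were listed at chr12:114869098-114869166, 32.7 kb from VH81X (Ighv5-2), and VH2-4 joins at chr12:114911184-114911205, 74.8 kb from VH81X on the same side. Positions are in mm9, and both segments are read from the minus strand, with the junctions at the end of the V coding exon.

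DNA was taken from bone marrow pro-B cells, the precursors that assemble the heavy chain gene, and examined by high-throughput genome-wide translocation sequencing (HTGTS). In this assay a primer at the coding end of the JH4 segment is the bait, and the sequence joined to it, the prey, shows which V or D segment was used. The series design asks how often VH segments are used in mutant and WT mice. The 4 VH81X-CBEscr/scr libraries and the 3 WT libraries all came from 129SVE mice of 4 to 6 weeks, sorted as B220+CD43highIgM- cells. The series title gives CBE as CTCF-binding element. The labels do not spell out scr/scr, which is read here as both alleles carrying a scrambled element beside VH81X. The labels do not say whether each library is a separate mouse, so p-values measure the spread between these libraries.

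A heavy chain gene is built in steps: a D segment is joined to a JH segment, and then a V segment is joined to the DJ product. The RAG endonuclease cuts at a recombination signal beside each segment, and it can reach V segments by scanning along chromatin, where CTCF bound to its elements can halt it. The cut ends are trimmed and filled before joining, so the reading frame of each join varies, and only a join in frame can encode a heavy chain.

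The libraries held 31986 to 46915 junctions, of which 10961 to 16874 were V junctions. VH81X itself fell to 0.181% ± 0.140 of V junctions in VH81X-CBEscr/scr libraries (SD, n = 4), against 9.42% ± 0.622 in WT libraries (SD, n = 3), and limma-voom gave a log2 fold change of -5.95 (adjusted p 7.98e-69). Because a share rises when an abundant segment is lost, shares were also computed with VH81X left out. The 7 libraries were sequenced in 4 runs, and none of the runs held both genotypes (0 runs), so run and genotype cannot be told apart within a run. WT replicate 2 stood apart in how often its reads repeated the same join, as given below, and the main values are given without it too.

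The last 120 coding bases of each consensus, up to 9 bases past the start of the codon of the conserved cysteine (tgt), are shown to compare both segments where their joins form. They were read from the prey bases of the listed junctions, since no mm9 genome was used. Capitals in VH2-3 mark the 13 bases that differ from VH2-4, and capitals in VH2-4 mark the same positions.
VH2-3, chr12:114869105-114869224: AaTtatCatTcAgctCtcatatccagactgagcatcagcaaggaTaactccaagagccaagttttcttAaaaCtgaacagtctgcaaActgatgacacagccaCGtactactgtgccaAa
VH2-4, chr12:114911187-114911306: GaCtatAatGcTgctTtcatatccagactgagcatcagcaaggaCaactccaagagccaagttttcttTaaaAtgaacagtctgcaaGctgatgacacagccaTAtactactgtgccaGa

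The segment closest in sequence to VH2-4 was V_115073093, an unnamed segment called here by its most frequent junction position. It differed from VH2-4 at 2 of 250 compared coding bases (99.2% identity), and their last 108 coding bases were identical. VH2-2 (Ighv2-2), 9.77 kb from VH81X, differed from VH2-4 at 5 of 250 bases (98% identity). VH2-3 differed from VH2-4 at 25 of 250 bases (90% identity). The stretches of V_115073093 and VH2-2 that match the lines above are shown with capitals at the bases that differ from VH2-4 (1 and 4 bases), because they bear on which reads can be assigned to VH2-4.
V_115073093, chr12:115073095-115073214: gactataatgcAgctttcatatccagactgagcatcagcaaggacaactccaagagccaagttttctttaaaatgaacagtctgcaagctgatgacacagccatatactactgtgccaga
VH2-2, chr12:114846144-114846263: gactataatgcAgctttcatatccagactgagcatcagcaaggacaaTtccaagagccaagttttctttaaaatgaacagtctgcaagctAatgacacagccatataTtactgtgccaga

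VH2-3 was used more in the mutant. It took 3.61%, 3.20%, 3.27% and 2.96% of V junctions in VH81X-CBEscr/scr libraries (435, 373, 426 and 465 junctions), against 2.25%, 2.21% and 1.93% in WT libraries (379, 242 and 287 junctions). The lowest mutant library exceeded the highest WT library, so the groups did not overlap. The lowest 95% Wilson bound of a mutant library was 2.70%, and the highest of a WT library was 2.50%. These bounds treat each line as independent. There were 1.49 to 3.67 lines per distinct VH2-3 join, so the bounds are too narrow, and the gap between them is not a test. The means were 3.26% ± 0.270 in VH81X-CBEscr/scr (SD, n = 4) and 2.13% ± 0.174 in WT (SD, n = 3). limma-voom over all 129 V segments with enough junctions gave a log2 fold change of 0.61 (SE 0.160, adjusted p 0.00468). Of those segments, 3.88% passed the threshold as higher in the mutant, and 6.2% had every mutant library above every WT library.

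With VH81X left out, VH2-3 made up 3.26% ± 0.274 of the remaining V junctions in VH81X-CBEscr/scr (SD, n = 4) and 2.35% ± 0.177 in WT (SD, n = 3), and each mutant library still lay above every WT library. The log2 fold change was 0.47 (SE 0.159), and it no longer passed the threshold (limma-voom adjusted p 0.0959). On that scale the median of all 128 tested segments was -0.18, against -0.04 with VH81X kept in, 1.56% of segments passed as higher, and 3.12% had every mutant library above every WT library. Without WT replicate 2 the log2 fold change was 0.64 with all V junctions (adjusted p 0.000685) and 0.50 with VH81X left out (adjusted p 0.0253). With VH81X left out, VH2-3 missed in each fit that left out another library instead (limma-voom adjusted p 0.0641 to 0.234). Without WT replicate 3 the log2 fold change was 0.54 with all V junctions, just outside the threshold (adjusted p 0.0501). With VH81X left out it was then 0.41 (limma-voom adjusted p 0.226).

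VH2-4 was rare in both genotypes, and its difference between them carried a larger error. It took 0.241%, 0.360%, 0.245% and 0.191% of V junctions in VH81X-CBEscr/scr libraries (29, 42, 32 and 30 junctions), against 0.113%, 0.137% and 0.107% in WT libraries (19, 15 and 16 junctions). Each mutant library lay above every WT library, but the counting intervals of the genotypes overlapped: the lowest mutant bound was 0.134% and the highest WT bound 0.226%. The means were 0.259% ± 0.0715 in VH81X-CBEscr/scr (SD, n = 4) and 0.119% ± 0.0157 in WT (SD, n = 3). The log2 fold change was 1.06 (SE 0.406) and did not pass the threshold (limma-voom adjusted p 0.128), nor did it with VH81X left out (0.92, SE 0.405, adjusted p 0.265). Without WT replicate 2 it was 1.15 (adjusted p 0.123). Among out-of-frame joins alone it was 1.51 (SE 0.462) and passed (adjusted p 0.0436), and with VH81X left out it was 1.29 and did not (adjusted p 0.206). Few lines stand behind these out-of-frame values. In WT, 26 of 50 VH2-4 lines with a frame read were in frame, and in VH81X-CBEscr/scr 49 of 132. With repeats of a join counted once, 20 of 33 VH2-4 joins were in frame in WT.

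**Figure D1:**
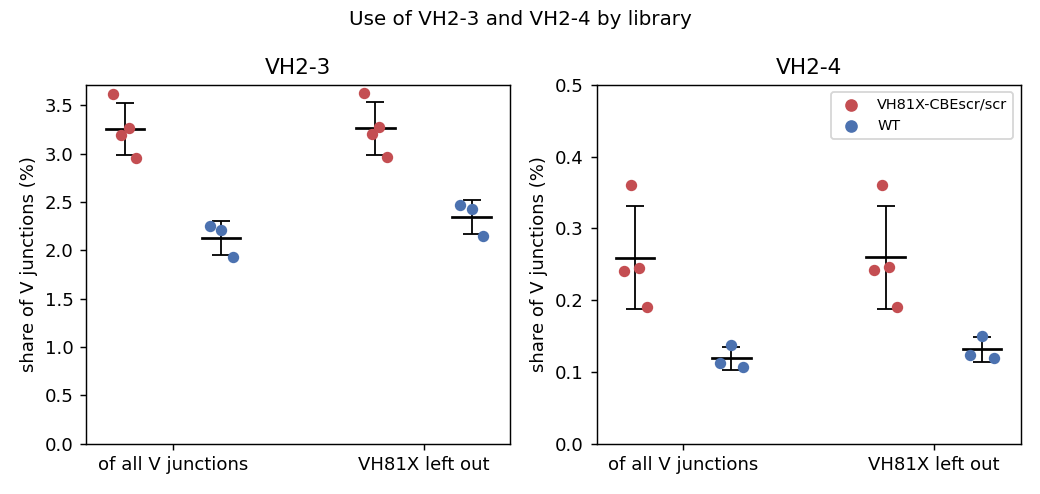
Share of V junctions (%) taken by VH2-3 (left panel) and VH2-4 (right panel) in each library, with all V junctions or with VH81X left out of the total. Points are libraries, and bars are the mean and SD (VH81X-CBEscr/scr n = 4, WT n = 3). Every VH81X-CBEscr/scr point lies above every WT point in all 4 comparisons.

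Tested one by one, both shares had the smallest p that an exact permutation test of 4 against 3 libraries can give (two-sided, p 0.0286). Over the family of 19 comparisons between genotypes made here the adjusted p was 0.136, so neither share passed in that test. The position of each segment in the order of use differed greatly. By mean share VH2-3 was number 3 of 158 segments in VH81X-CBEscr/scr and number 5 in WT. VH2-4 was number 84 in VH81X-CBEscr/scr and number 109 in WT, where the median segment had 0.300% in VH81X-CBEscr/scr and 0.331% in WT.

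Both segments lie among the named segments from VH5-1 to VH5-9 (Ighv5-1 to Ighv5-9), whose changes are set side by side here. VH2-2 took 11.6% ± 1.82 of V junctions in VH81X-CBEscr/scr (SD, n = 4) and 5.57% ± 0.404 in WT (SD, n = 3), and limma-voom gave 1.04 on the log2 scale (SE 0.140, adjusted p 1.59e-11). VH5-4, 18.98 kb from VH81X, had a log2 fold change of 0.65 (SE 0.152, adjusted p 8.43e-04). VH5-6, which lies between VH2-3 and VH2-4, had 0.46 (SE 0.170, adjusted p 0.123), and VH5-9, beyond VH2-4, had 0.16 (SE 0.379, adjusted p 0.960). VH5-1, on the other side of VH81X, had -0.47 (SE 0.332, adjusted p 0.696). Without WT replicate 2 VH5-1 passed as lower (-1.01, limma-voom adjusted p 0.0178, and -1.15, adjusted p 0.00695, with VH81X left out). All fold changes are VH81X-CBEscr/scr over WT, with all V junctions as library size except where VH81X is said to be left out.

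**Figure D2:**
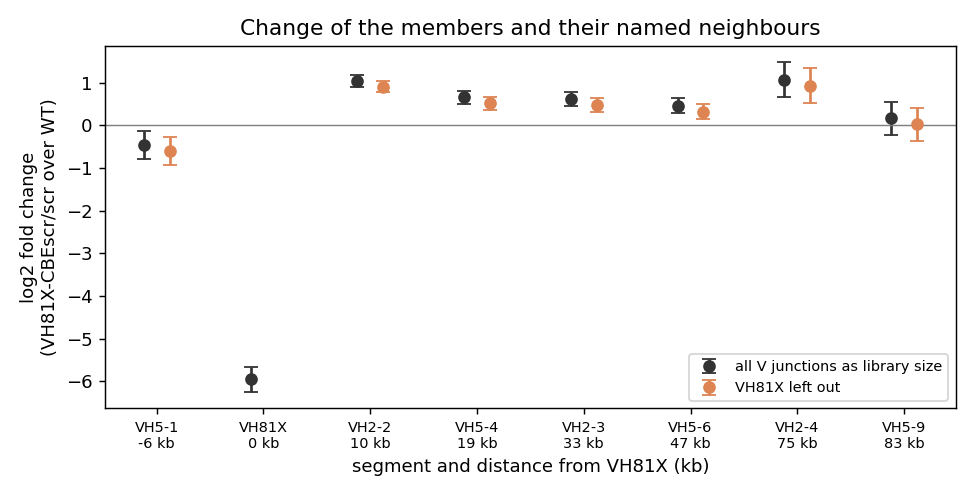
Log2 fold change (VH81X-CBEscr/scr over WT, limma-voom) of the 8 named segments in order of distance from VH81X (kb), with all V junctions or with VH81X left out as library size. Points are estimates and bars are SE. VH2-3 (0.61) and VH2-4 (1.06) both lie above 0 in both series, and the bar of VH2-4 is the wider one.

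The ratios of junctions within a library compare the segments without any total. VH2-3 had 0.285 ± 0.0442 junctions per VH2-2 junction in VH81X-CBEscr/scr (SD, n = 4) and 0.382 ± 0.0285 in WT (SD, n = 3), and the groups did not overlap, with all 4 mutant libraries lower (exact permutation p 0.0571, adjusted p 0.217). The log2 difference of this ratio was -0.43 over all lines and -0.083 over lines not marked as duplicates. VH2-3 and VH5-4 kept closer: 0.692 ± 0.0227 VH2-3 junctions per VH5-4 junction in VH81X-CBEscr/scr (SD, n = 4) and 0.732 ± 0.177 in WT (SD, n = 3), with an exact permutation p of 0.914. VH2-4 had 0.0222 ± 0.00352 junctions per VH2-2 junction in VH81X-CBEscr/scr (SD, n = 4) and 0.0215 ± 0.00372 in WT (SD, n = 3), with an exact permutation p of 0.857. There were 13.2 ± 3.01 VH2-3 junctions per VH2-4 junction in VH81X-CBEscr/scr (SD, n = 4) and 18.0 ± 1.91 in WT (SD, n = 3, exact permutation p 0.0857, adjusted p 0.271). The log2 difference of this ratio was -0.48 over all lines and -0.12 over lines with prey of at least 111 bases, the shortest prey listed at VH2-4. None of these ratios passed the threshold, which does not show that the segments changed alike.

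Across the 7 libraries the segments whose log2 share (VH81X left out) went most closely with that of VH2-3 were VH2-2 (Pearson r 0.90), VH2-4 (0.86) and VH5-4 (0.82), of 119 segments compared. For VH2-4 they were VH2-2 (0.93), VH2-3 (0.86) and VH5-4 (0.70). The libraries of each genotype share their level and the shares have a common total, so these values are a description.

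Of the other 14 segments of the VH2 family (at least 80% identical to VH2-3), 13 were tested and 1 passed as higher, VH2-2. Their median log2 fold change was 0.06, with 7 of 13 above 0, against -0.04 and 57 of 129 for all tested segments. With VH81X left out the family median was -0.07, with 6 of 13 above 0, against -0.18 and 39 of 128. The most used after VH2-2 (8430 junctions) was V_115453076, 617 kb from VH81X, with 2577 junctions, close to the 2607 of VH2-3. The least used had 24 junctions and the median one 304.

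The count of VH2-4 may depend on read length, which was not tested. The sequence of a read tells VH2-4 from a near-identical segment only if it reaches a base that differs. How the submitters placed reads that match several segments equally is not known. The shortest prey listed at VH2-4 had 111 bases, against 26 at VH2-3 and 26 at VH2-2. At V_115073093, which shares the last 108 coding bases, the shortest prey had 99 bases. Of the VH2-3 lines, 73.6% had prey of at least 111 bases. Counting lines of that length or more, VH2-3 had 10.5 lines for each VH2-4 line in place of 14.2, so VH2-3 was still the more used. The median prey of VH2-3 was 181 bases in VH81X-CBEscr/scr and 153 in WT, and that of VH2-4 was 205 in VH81X-CBEscr/scr and 209 in WT.

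**Figure D3:**
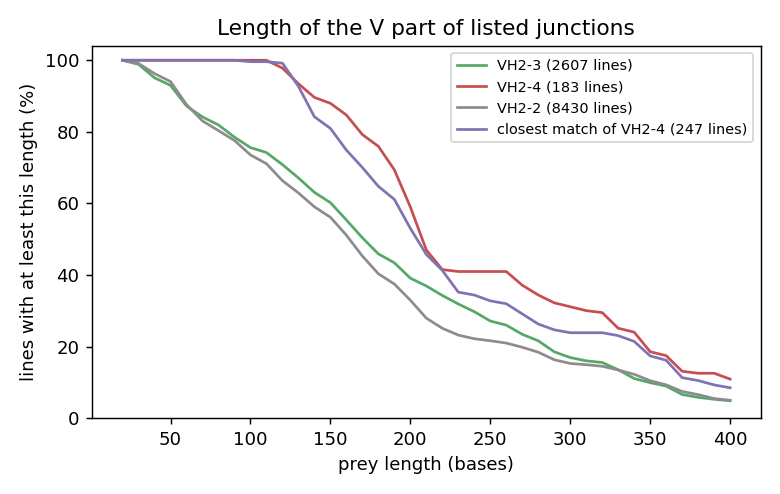
Percent of lines whose prey has at least the length on the horizontal axis (bases), for VH2-3, VH2-4, VH2-2 and the segment closest in sequence to VH2-4, with all 7 libraries pooled. VH2-4 and its closest match list no prey under 99 bases, while VH2-3 and VH2-2 reach down to 26 bases.

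With prey of at least 111 bases only, VH2-3 took 3.25% ± 0.348 of V junctions in VH81X-CBEscr/scr (SD, n = 4) and 1.94% ± 0.247 in WT (SD, n = 3), and each mutant library lay above every WT library. VH2-3 then passed with all V junctions (log2 fold change 0.73, limma-voom adjusted p 0.00134) and with VH81X left out (0.59, adjusted p 0.0237). This length limit was chosen after seeing the data. With VH81X left out, VH2-3 missed with lines not marked duplicate (limma-voom adjusted p 0.0604) and with distinct junctions (0.0628). It also missed with prey matching its own segment best (0.125) and among out-of-frame joins (0.297). Among prey of at least 111 bases, VH2-4 took 0.331% ± 0.104 in VH81X-CBEscr/scr (SD, n = 4) and 0.182% ± 0.0603 in WT (SD, n = 3). The groups overlapped, with 3 of 4 mutant libraries above the highest WT library. Of the listed lines, 99.96% at VH2-3 and 99.5% at VH2-4 matched their own consensus better than that of any other segment. Each consensus was built from these same lines, so a high match was largely set in advance. It does not test their placement or show reads placed elsewhere.

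The joins themselves were varied at VH2-3 and few at VH2-4. A distinct join is a combination of V position, JH4 position and the sequence between. VH2-3 had 176, 180, 221 and 220 distinct joins in VH81X-CBEscr/scr libraries, against 254, 66 and 183 in WT libraries. WT replicate 2 was low, with 3.67 lines per distinct join, while the other libraries had 1.49 to 2.47. VH2-4 had 13, 21, 20 and 16 distinct joins in VH81X-CBEscr/scr libraries, against 15, 6 and 12 in WT libraries, and the most repeated join made up 15.6% to 40.0% of a library's VH2-4 lines. Of 1299 distinct VH2-3 joins 1 was found in more than 1 library, and of 103 VH2-4 joins none was (0). With each distinct join counted once, VH2-3 took 2.87% ± 0.174 of V joins in VH81X-CBEscr/scr (SD, n = 4) and 1.95% ± 0.204 in WT (SD, n = 3). VH2-4 then took 0.255% ± 0.0707 in VH81X-CBEscr/scr (SD, n = 4) and 0.138% ± 0.0209 in WT (SD, n = 3), so both kept their direction.

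To show what was joined, the most repeated in-frame join without a stop codon and the most repeated out-of-frame join are given for each segment, among joins with a recognised D segment. Each runs from the cysteine codon of the V segment (tgt) to the tryptophan codon of JH4 (tgg). Capitals mark the bases recognised as the D segment, which was sought only between the parts aligned to V and to JH4.
VH2-3 in frame, 12 lines of WT replicate 2: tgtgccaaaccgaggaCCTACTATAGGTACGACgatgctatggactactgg
VH2-3 out of frame, 12 lines of WT replicate 2: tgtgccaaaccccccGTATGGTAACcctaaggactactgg
VH2-4 in frame, 2 lines of VH81X-CBEscr/scr replicate 2: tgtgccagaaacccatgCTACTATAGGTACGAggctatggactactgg
VH2-4 out of frame, 5 lines of VH81X-CBEscr/scr replicate 3: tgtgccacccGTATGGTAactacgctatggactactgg
Both in-frame joins hold D_114705399 and both out-of-frame joins hold D_114695747, D segments called by their most frequent junction position. In the VH2-4 out-of-frame join the match to D_114695747 runs on into bases that were aligned to JH4. The capitals there do not fix where D ends.

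The most frequent V end differed between the 2 segments when lines were pooled, with repeats of a join included. How many bases were trimmed is not known, since no mm9 genome was used. At VH2-3 the most frequent end kept 6 bases after the cysteine codon, in 32.0% of lines in VH81X-CBEscr/scr and 32.2% in WT, followed by 8 bases (22.7% in VH81X-CBEscr/scr and 27.1% in WT). At VH2-4 the most frequent end kept 8 bases, in 44.7% of lines in VH81X-CBEscr/scr and 56.0% in WT. The mean number of bases kept at VH2-3 was 5.81 ± 0.501 in VH81X-CBEscr/scr (SD, n = 4) and 6.44 ± 0.665 in WT (SD, n = 3, exact permutation p 0.257). At VH2-4 it was 6.49 ± 0.760 in VH81X-CBEscr/scr (SD, n = 4) and 5.98 ± 1.58 in WT (SD, n = 3, exact permutation p 0.600). Within libraries the mean difference (VH2-3 minus VH2-4) was -0.193 bases. It was above 0 in 2 of 7 libraries (exact permutation p 0.5625, adjusted p 0.625), so the means did not separate the segments. The bases between V and JH4, which hold the D segment and any added bases, numbered 17.2 ± 0.851 in VH81X-CBEscr/scr (SD, n = 4) and 17.6 ± 0.410 in WT (SD, n = 3) for VH2-3 (exact permutation p 0.543). For VH2-4 they numbered 16.7 ± 1.00 in VH81X-CBEscr/scr (SD, n = 4) and 15.3 ± 0.867 in WT (SD, n = 3, exact permutation p 0.114).

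**Figure D4:**
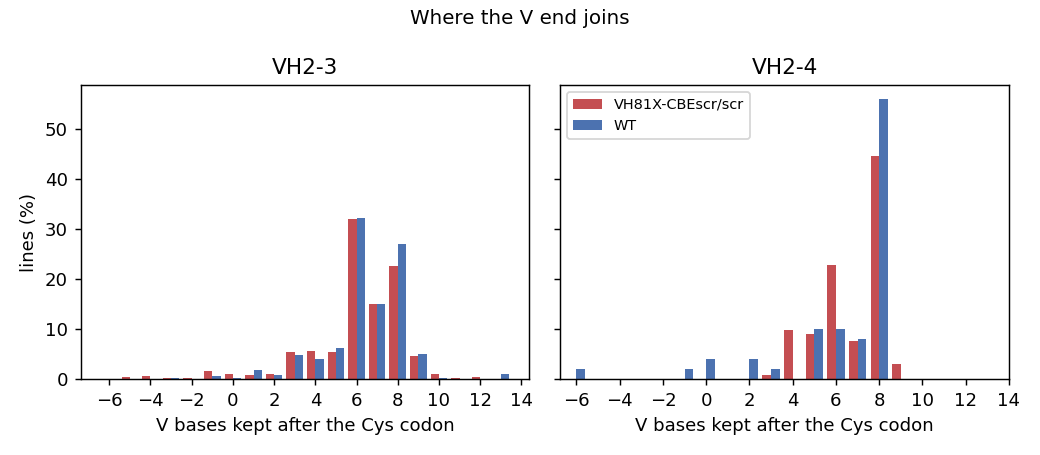
Percent of lines (vertical axis) by the number of V bases kept after the cysteine codon (horizontal axis, negative where the codon was cut into), for VH2-3 and VH2-4 in VH81X-CBEscr/scr and WT, with the libraries of a genotype pooled. The highest bars stand at 6 bases for VH2-3 and at 8 bases for VH2-4 in both genotypes.

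Over all libraries, more lines of either segment were out of frame than in frame. At VH2-4 this was less clear with each distinct join counted once, with 49 of 102 in frame. In WT alone, 26 of 50 lines and 20 of 33 distinct joins of VH2-4 were in frame. The in-frame share of VH2-3 was 27.1%, 33.3%, 41.6% and 42.5% in VH81X-CBEscr/scr libraries, against 44.3%, 32.1% and 36.0% in WT libraries, and the genotypes overlapped. The means were 36.2% ± 7.32 in VH81X-CBEscr/scr (SD, n = 4) and 37.5% ± 6.21 in WT (SD, n = 3, exact permutation p 0.800). For VH2-4 it was 13.8%, 45.2%, 38.7% and 46.7% in VH81X-CBEscr/scr libraries, against 42.1%, 40.0% and 75% in WT libraries. That wide range rests on 15 to 42 lines per library, and the genotypes overlapped (exact permutation p 0.457).

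All other V segments together had 55.2% ± 2.82 of joins in frame (SD, n = 7), and VH2-3 was lower in 7 of 7 libraries, with a mean difference (VH2-3 minus the others) of -18.5 percentage points. An exact permutation test that turns the sign of each library's difference gave p 0.0156, the smallest it can give, and an adjusted p of 0.0781 over 20 such comparisons. VH2-4 differed from the others by -12.1 percentage points on average and was lower in 6 of 7 libraries (exact permutation p 0.109, adjusted p 0.219). A low in-frame share was not particular to VH2-3: over all libraries it was 37.1% at VH2-3 and 41.2% at VH2-4, against 28.5% at VH5-1, 30.4% at VH81X, 37.9% at VH2-2, 39.9% at VH5-4, 39.8% at VH5-6 and 55.1% at VH5-9. Among 116 segments with at least 100 joins the median was 63.3%, and VH2-3 was number 14 and VH2-4 number 20 from the lowest. In-frame joins of VH2-3 carried a stop codon in 191 of 934 lines (20.4%), and those of VH2-4 in 7 of 74 (9.46%). The median length between the cysteine and tryptophan codons of in-frame joins was 13 codons for VH2-3 and 12 for VH2-4.

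**Figure D5:**
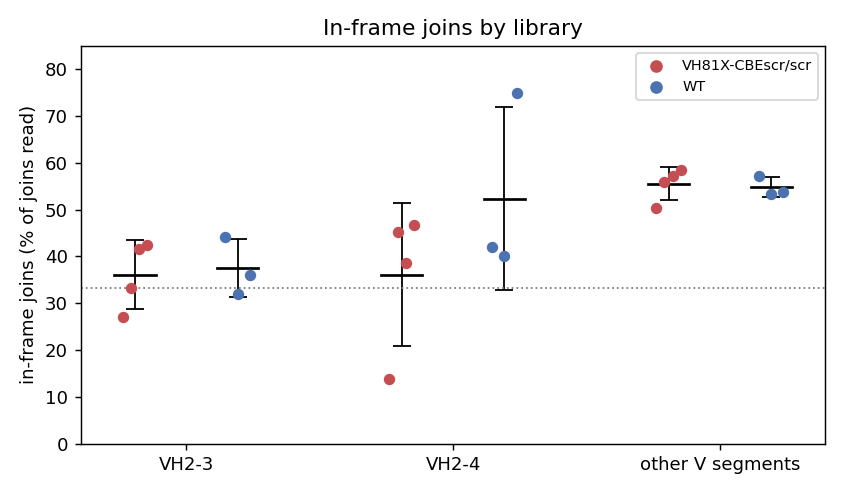
In-frame joins as a percent of joins whose frame could be read, per library, for VH2-3, VH2-4 and all other V segments. Points are libraries, bars are mean and SD (VH81X-CBEscr/scr n = 4, WT n = 3), and the dotted line at 33.3% is where 3 equally frequent frames would lie. VH2-3 lies below the other V segments in each library, with overlapping genotypes.

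A D segment was recognised in most joins, by at least 8 bases shared with a D sequence. In VH2-3 joins the most frequent was D_114705399 (15.8% of lines), followed by D_114700407 or D_114710077, which have the same sequence (10.5%), DFL16.1, the D segment nearest to the V segments (10.2%), D_114727777 (6.29%) and D_114695747 (6.06%). DQ52, the D segment nearest to JH, was found in 1.11%. Its sequence has 11 bases, against 16 to 23 in the other D segments, so the 8-base rule finds it less readily. No D segment was recognised in 29.5%, and in 10.7% the best match was tied between D segments. The order of D segments therefore depends in part on their sequences and is not a measure of use alone. D_114705399 was in 15.9% ± 3.60 of VH2-3 lines and 10.3% ± 0.571 of lines of other V segments (SD, n = 7), higher at VH2-3 in 7 of 7 libraries (exact permutation p 0.0156, adjusted p 0.0781). Among out-of-frame joins, a choice made after seeing the data, it was 6.19 percentage points higher at VH2-3, again in 7 of 7 libraries. VH2-2 had a like share, 17.1% ± 2.05 (SD, n = 7), so this was not particular to VH2-3.

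DFL16.1 was in 10.5% ± 4.03 of VH2-3 lines and 14.1% ± 0.988 of lines of other V segments (SD, n = 7), lower at VH2-3 in 7 of 7 libraries (exact permutation p 0.0156, adjusted p 0.0781). Among out-of-frame joins it was lower in 5 of 7 (exact permutation p 0.0938), and VH2-2 had 8.96% ± 2.29 of all its lines with DFL16.1 (SD, n = 7). Between genotypes, DFL16.1 was in 8.39% ± 4.24 of VH2-3 lines in VH81X-CBEscr/scr (SD, n = 4) and 13.2% ± 1.43 in WT (SD, n = 3, exact permutation p 0.114). In VH2-4 joins DFL16.1 was found in 13 of 183 lines and D_114705399 in 21 of 183.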

How the data were processed

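The deposited files hold 1 line per sequenced junction, with its position, strand, alignment and read, and no count column, so lines were counted here. Bowtie2 and the build mm9 are named in the submitters' processing notes, without a version. Lines that the deposited files mark as duplicates were kept. V segments are clusters of 10 or more junctions no more than 300 bp apart. Names came from spacing in a GRCm38.p6 gene table (largest offset 48 bp). The total is every deletional junction in the V range, and 0.259% of these lie outside a cluster. Reading frame could not be read in 1.94% of V lines. PCR reads carry no molecular identifiers, so Wilson intervals and the limit that a count of 0 allows (3 counts, 0.0178% to 0.0274% of V junctions) cover counting error only. The Wilson intervals treat lines that repeat the same join as independent and are too narrow for that reason.

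Segments averaging 10 or more junctions in one of the genotypes were tested with limma-voom (limma 3.58.1, R 4.3.3) over the whole table, with Benjamini-Hochberg adjustment and a threshold of 0.05. For single values, two-sided exact permutation tests ran over all 35 assignments of 7 libraries, and segments within a library by exact sign changes (128). The members, gene lists and tests were chosen with earlier results of these data known. V segments named are both members, the named neighbours and the most used VH2 segments. D segments named are DQ52, DFL16.1 and the others in at least 5% of VH2-3 joins. V_115073093 was named after its sequence was seen. Libraries of a genotype differed in V use also with each distinct junction counted once (chi-square p 0.0467 or lower in each pair). The labels do not say whether replicate numbers pair the libraries. Deviations of same-numbered libraries correlated at -0.24, 0.0011 and 0.11, which shows no pairing but cannot exclude it. The script was tested on simulated data. Python 3.11.15, pandas 2.3.3 and SciPy 1.17.1 were used.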

Additional observations from a re-analysis of the deposited data

How the results depend on the processing

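VH2-3 and VH2-4 stayed higher in VH81X-CBEscr/scr under every alternative run. Leaving out each library, the log2 difference of the share was 0.55 to 0.66 for VH2-3 and 0.92 to 1.23 for VH2-4, where the smallest exact permutation p of 0.1 or 0.0667 cannot pass. Long prey only, an alternative chosen after seeing the data, gave 0.86 for VH2-4 (exact permutation p 0.0857). With all V junctions limma-voom called 6 segments. Separate fits with a library left out called 4 to 9, of which 4 to 6 were among those 6. V junctions other than VH81X as the total gave 3 calls, and V and D junctions 2. VH2-3 missed in both (0.47, adjusted p 0.0747, and 0.68, adjusted p 0.0842). With VH81X left out 2 were called, 1 to 5 with a library left out, and, as alternatives chosen after seeing the data, 1 each with lines not marked duplicate and with prey matching its own segment best. With the run as a random block 8 were called, VH5-6 among them (limma-voom adjusted p 0.0444), and VH2-3 had 0.62 (adjusted p 0.000686), but no run held both genotypes, so this fit does not separate run from genotype.

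With the replicate number as a block, 2 segments were called, and VH2-3 was not (0.66, adjusted p 0.0873). With VH81X left out limma-voom then called 0, with 12 at an unadjusted p under 0.05. Whether these numbers pair the libraries is not known.

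The log2 difference of the ratio of VH2-3 to VH2-4 was -0.48, and it was -0.95 among out-of-frame joins (exact permutation p 0.0286, unadjusted), -0.30 with distinct junctions (p 0.286, exact), -0.28 with lines not marked duplicate (p 0.143, exact) and -0.12 with long prey (p 0.743, exact). That of VH2-3 to VH2-2 was -0.43, and it was -0.44 with distinct junctions (exact permutation p 0.0286, unadjusted) and -0.083 with lines not marked duplicate (p 0.457, exact). Small differences changed sign. VH2-4 to VH2-2 was -0.14 with distinct junctions, -0.21 with long prey and -0.05 to 0.18 with a library left out. VH2-3 to VH5-4 was 0.036 with lines not marked duplicate, 0.0021 out of frame, 0.16 with long prey and -0.18 to 0.13 with a library left out. With a library left out, the in-frame difference of VH2-3 was -4.00 to 2.09 points, bases kept at VH2-4 -0.016 to 1.42, D recognised at VH2-3 -2.0 to 1.81 points, and DFL16.1 at VH2-4 -5.59 to 3.79 points (0.529 with distinct junctions). VH5-1 had a log2 fold change of -1.01 to 0.064, and was called only without WT replicate 2. VH5-9 had -0.32 to 0.45, and -0.47 to 0.32 with VH81X left out. VH5-9 was -0.11 with lines not marked duplicate, -0.069 with distinct junctions and -0.10 with long prey. With VH81X left out these were -0.18, -0.19 and -0.24, with -0.050 for prey matching its own segment best and -0.014 for the replicate block. The cause of these changes was not tested. Counts of 15 to 42 lines per library limit every VH2-4 value, and the out-of-frame values of VH2-4 rest on fewer lines.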

Other observations

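Joins in the opposite orientation, as an inversion would leave, were listed at VH2-3 in 24 lines beside the 2607 in deletional orientation. VH81X-CBEscr/scr libraries held 0, 3, 0 and 3 such lines, and WT libraries 3, 15 and 0. Only 8 of the 24 were not marked as duplicates, and 15 of the 24 came from WT replicate 2. At VH2-4 none was listed in any library (0), which allows up to 0.0178% to 0.0274% of V junctions.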
